A study of Mus musculus with 10 samples.

Results

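Of 10 genes that make, break down or handle haem and iron, 1 passed the test in hearts of mice that lack the kinase PDK1 in adipocytes. Hmox1, which encodes the inducible haem oxygenase, stood at 27.5 ± 6.06 FPKM in these hearts against 12.3 ± 5.85 in controls (mean ± SD, n = 5 per group), 2.24-fold higher. Hmox1 no longer passed in 8 of the 10 fits with 1 heart left out. The genes were chosen by symbol, with earlier results of these data known. They were Hmox1, Hmox2, Blvra and Blvrb (haem breakdown), Alas1 and Fech (haem synthesis), and Fth1, Ftl1, Tfrc and Slc40a1 (iron storage, uptake and export). All 10 were among the 11790 genes of the deposited table, and all 10 were among the 9987 tested. FPKM are fragments per kilobase of gene, scaled to the size of the library, a level per length that can be compared between genes.

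The 5 A-PDK1KO mice carried an adipocyte-specific knockout of PDK1, and the 5 control mice carried the PDK1 flox/flox alleles. The series title presents the mice as a model of diabetic heart disease. Heart tissue was taken from mice aged 10 to 11 weeks, fed at random, and snap frozen. The sources used here do not name the promoter that drives the deletion in adipocytes, and the labels describe no heart cell as targeted. The labels number separate mice, so the p-values measure the spread between these mice.

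Haem is an iron-bearing ring that carries oxygen in haemoglobin and myoglobin and electrons in the mitochondrial cytochromes, which makes heart muscle one of the haem-rich tissues. Its synthesis begins with aminolevulinate synthase (Alas1 in most tissues, Alas2 in red cell precursors) and ends with ferrochelatase (Fech), which inserts the iron. Haem oxygenase opens the ring and releases iron, carbon monoxide and biliverdin, and biliverdin reductase turns biliverdin into bilirubin. Freed iron is stored in ferritin or leaves the cell through ferroportin, and cells take iron up by the transferrin receptor.

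The implied library sizes ran from 9249256 to 11384423 fragments. Across all tested genes, 208 of 9987 (2.08%) passed an adjusted p of 0.05 with limma, 121 higher and 87 lower in A-PDK1KO. The split was 323 higher and 67 lower when scaling ignored genes encoded in mitochondria and globin genes, and 102 higher and 105 lower with median-of-ratios factors. The median log2 fold change of all tested genes was 0.02, and no scaling moved it by more than 0.1. Pdpk1, which encodes PDK1, lay at 3.14 to 3.77 FPKM in control hearts, and at 2.73 to 4.04 FPKM in the A-PDK1KO group. Because the deletion is in adipocytes, this level does not check the labels. The summed level of 7 cardiomyocyte markers lay between 10728 and 13983 FPKM over the 10 hearts, as measured in the tissue labelled heart. Of 7 adipocyte markers only Cfd was analysed, at 0 to 1.36 FPKM. Atrial tissue varied: Myl7, the atrial myosin light chain, exceeded 10 FPKM in 4 hearts (control replicates 2 and 5, A-PDK1KO replicates 3 and 5) and stayed below 1 FPKM in the remaining 6.

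Hmox1 (chr8:75093621-75100589, plus strand, mm10) was measured at 12.6, 21.3, 9.10, 5.61 and 12.6 FPKM over control replicates 1 to 5. A-PDK1KO replicates 1 to 5 stood at 24.4, 32.3, 33.8, 18.9 and 27.8 FPKM. Control replicate 2 was the 1 control above the lowest A-PDK1KO heart, replicate 4, and the groups overlapped only there. On the log2(FPKM + 1) scale Hmox1 rose by 1.19 ± 0.26 (SE; 95% interval 0.62 to 1.76; limma adjusted p = 0.0400). By size of log2 fold change, in either direction, it ranked 12 among the 9987 genes tested. The coefficient of variation of its FPKM was 47.7% in controls and 22.0% in A-PDK1KO hearts, so the controls were relatively the more scattered group. Between 95 and 654 fragments per heart lay behind these levels.

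**Figure D1:**
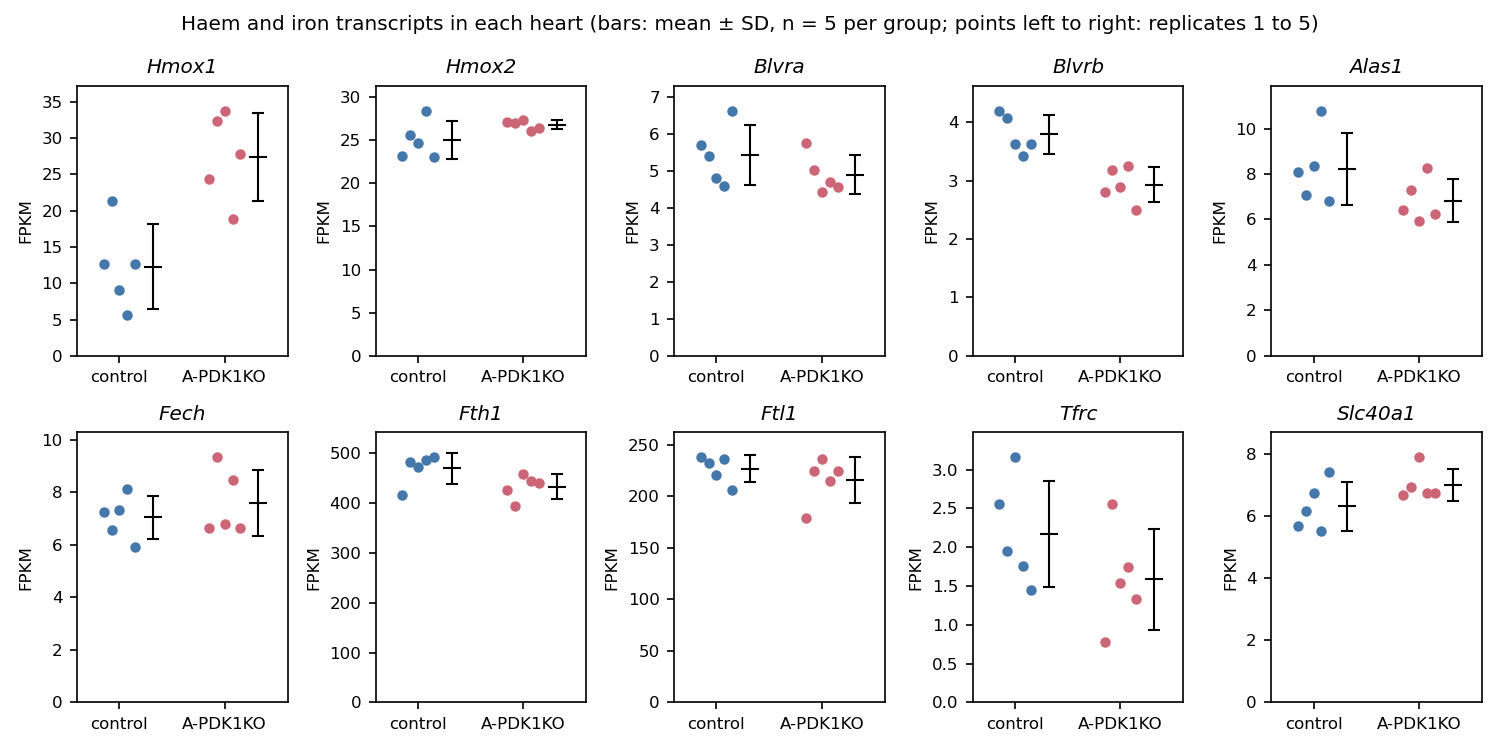
FPKM of each of the 10 haem and iron genes in each heart, with 1 panel per gene; points are single hearts, replicates 1 to 5 from left to right and bars beside them are group means with SD (n = 5 per group). Hmox1 spans 5.61 to 21.3 FPKM in controls and 18.9 to 33.8 FPKM in the A-PDK1KO group, and Blvrb is the gene whose groups do not overlap.

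The call on Hmox1 lay close to the threshold. Leaving out each of the 10 hearts in turn, the log2 fold change ran from 0.96 (without control replicate 4) to 1.40 (without control replicate 2), always higher in A-PDK1KO. The adjusted p from limma in these fits ran from 0.0191 to 0.103. It stayed under 0.05 only without control replicate 2 (0.0191) or without A-PDK1KO replicate 4 (0.0403), so the call was lost without each of the other 8. It was also lost on the TPM scale (adjusted p = 0.0510), with median-of-ratios factors (0.0587) and with robust variances (0.0934). In a voom fit on recovered fragments, which called 229 of 9808 genes (2.33%), Hmox1 was called with a log2 fold change of 1.26 (adjusted p = 0.0150).

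Blood left in a heart carries red cell RNA and haem, so the blood content was taken as the summed FPKM of the 4 globin genes Hba-a1, Hba-a2, Hbb-bs and Hbb-bt. In control replicates 1 to 5 the sum was 1379, 245, 88.0, 27.5 and 74.6 FPKM. The A-PDK1KO hearts, in the same order, gave 68.1, 91.2, 155, 118 and 226 FPKM. Control replicate 1 held by far the most, 5.63 times the next control and 50.2 times the lowest control, and the groups overlapped. The log2 difference between the groups was -0.257 (exact two-sided permutation p = 0.817), and 0.554 without control replicate 1 (exact permutation p = 0.437). Of 252 splits of 10 hearts into groups of 5, the smallest exact p that can be reached is 0.00794.

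**Figure D2:**
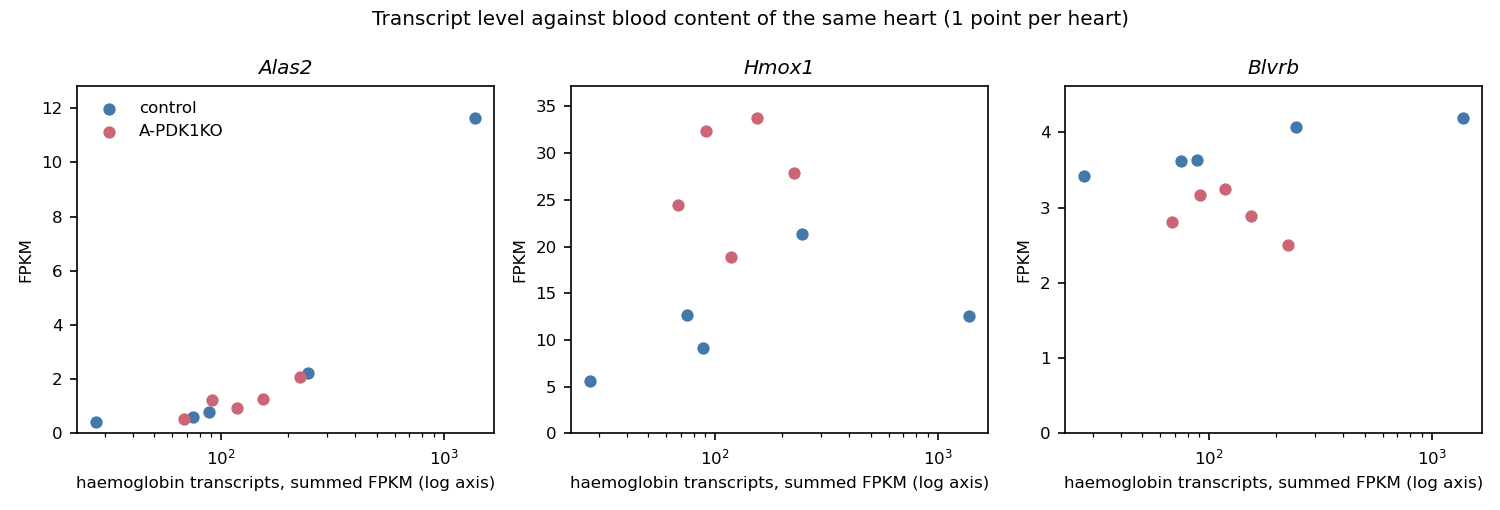
FPKM of Alas2, Hmox1 and Blvrb (1 panel each, vertical axes) against the blood content of the same heart (summed FPKM of 4 globin genes, log axis); each point is a heart, coloured by group. Control replicate 1 lies far to the right at 1379 FPKM with Hmox1 at 12.6 FPKM, while Alas2 is highest there at 11.7 FPKM.

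The blood slope of Hmox1 did not pass the test, and control replicate 1 weighed on its size. With genotype in the model, its log2 level changed by 0.18 ± 0.08 (SE; 95% interval -0.01 to 0.36) per doubling of the globin sum (limma adjusted p = 0.686). That heart had the most blood and a middling 12.6 FPKM of Hmox1, while among the other 4 controls the lowest and highest Hmox1 levels fell in the hearts with the least and the most blood. Without control replicate 1 the slope was 0.43 ± 0.11 (95% interval 0.18 to 0.68; limma unadjusted p = 0.00335, adjusted p = 0.708), a fit added after the values were seen. With blood content as a covariate, the genotype difference of Hmox1 was 1.23 ± 0.24 (limma adjusted p = 0.0277). With the same covariate and without control replicate 1 it was 0.99 ± 0.21 (95% interval 0.53 to 1.44; limma adjusted p = 0.0727), which did not pass.

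Alas2, the red cell aminolevulinate synthase, moved with the blood. It was measured at 11.7, 2.22, 0.796, 0.431 and 0.621 FPKM over control replicates 1 to 5, against 0.521, 1.24, 1.28, 0.950 and 2.09 FPKM over A-PDK1KO replicates 1 to 5. Its slope was 0.58 ± 0.05 per doubling of the globin sum (limma adjusted p = 0.00057). The globin genes themselves had slopes of 0.96 to 0.99, which the definition of the sum fixes. These 5 genes were the only ones of 9987 (0.0501%) called for a blood slope, and 0 of the 10 haem and iron genes were. At an unadjusted p under 0.05, 741 genes (7.42%) had a slope and none of the 10 did with all 10 hearts in the fit. Without the 2 hearts farthest from the median blood content, control replicates 1 and 4, Hbb-bs and Hba-a1 were called and Alas2 was not.

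Markers of other cells were set beside the Hmox1 result. The summed level of 14 macrophage markers, a cell type that recycles haem, was 107 to 114 FPKM for controls and 84.4 to 119 FPKM for A-PDK1KO hearts (log2 difference -0.106; exact permutation p = 0.262). None of the tested macrophage, endothelial, fibroblast or cardiomyocyte markers was called. The cardiomyocyte sum was 11452 to 13983 FPKM for controls and 10728 to 12509 FPKM for A-PDK1KO hearts (log2 difference -0.178, exact permutation p = 0.0318, not adjusted over the marker lists). That p was above 0.05 on the TPM scale (0.0714), when scaling ignored mitochondrial and globin genes (0.175), and without control replicates 2, 3, 4 or 5 or A-PDK1KO replicates 2 or 3 (exact permutation p = 0.0556 to 0.0635). The 7 markers did not fall alike. Their log2 fold changes were -0.18 for Myl2, -0.22 for Actc1, -0.21 for Tnni3 and -0.11 for Myh6. For Tnnt2, Ttn and Ryr2 they were -0.02, -0.04 and -0.003. In whole tissue, fewer cells of a type and less RNA per cell cannot be told apart, and the cause of the lower sum was not tested. The atrial sum, made up mostly of Nppa, was also lower in A-PDK1KO hearts (214 to 579 against 184 to 268 FPKM, unadjusted exact permutation p = 0.0397). The sum did not track Myl7. Control replicate 1, with Myl7 at 0 FPKM, gave 487 FPKM, beside 435 and 579 FPKM in control replicates 2 and 5. A-PDK1KO replicate 3, with Myl7 at 35.0 FPKM, gave the lowest sum, 184 FPKM. None of the 4 genes was called (limma adjusted p = 0.0908 for Nppa and 0.909 to 0.949 for the others). The sum lost its p under 0.05 without control replicates 1, 2 or 5 or A-PDK1KO replicate 3 (exact permutation p = 0.0556 each). The part of these sums in the Hmox1 result was not tested.

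Hmox2, the constitutive haem oxygenase, gave 23.2, 25.5, 24.7, 28.4 and 23.0 FPKM over control replicates 1 to 5. It gave 27.1, 26.9, 27.3, 26.0 and 26.4 FPKM over A-PDK1KO replicates 1 to 5. The A-PDK1KO hearts lay within a narrow band inside the control range, and the log2 fold change was 0.10 (95% interval -0.04 to 0.24; limma adjusted p = 0.508). Exons of Hmox2 (chr16:4726361-4766742, plus strand) overlap those of Cdip1 on the opposite strand, and the sources used here do not state how strand was counted, so reads of the pair may be mixed.

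The transcript levels of the 2 oxygenases can be compared within each heart, though no protein was measured and the level of Hmox2 is uncertain. Cdip1 and Ppp4r2, both in the deposited table, share with Hmox2 a stretch of at least 200 bases that is at least 90% identical. The ratio of Hmox1 to Hmox2 was 0.544, 0.836, 0.369, 0.198 and 0.549 in control replicates 1 to 5 and 0.900, 1.20, 1.24, 0.727 and 1.06 in A-PDK1KO replicates 1 to 5. Hmox1 was thus below Hmox2 per length in every control, and above it in A-PDK1KO replicates 2, 3 and 5. The groups overlapped in the same pair of hearts as Hmox1 itself.

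Downstream, Blvrb was the 1 gene of the 10 whose groups did not overlap, against 4.96% of all tested genes. It encodes biliverdin reductase B, which also reduces flavins. Its level (chr7:27447978-27466144, plus strand) was 4.20, 4.08, 3.63, 3.42 and 3.62 FPKM over control replicates 1 to 5. Its A-PDK1KO values, replicates 1 to 5, were 2.81, 3.17, 2.90, 3.25 and 2.50 FPKM. Every A-PDK1KO heart lay below every control, though control replicate 4 and A-PDK1KO replicate 4 lay close together. The log2 fold change was -0.29 ± 0.08 (SE; limma unadjusted p = 0.00403, adjusted p = 0.103), which did not pass. The adjusted p stayed above 0.05 under all 20 other settings that gave a value (limma, 0.0633 to 0.232). Only 72 to 115 fragments per heart lay behind it, and its slope on blood content was 0.03 (limma adjusted p = 0.817).

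Blvra, the main adult biliverdin reductase (chr2:127070665-127097084, plus strand), ranged from 4.61 to 6.64 FPKM in controls, with a median of 5.40. In A-PDK1KO hearts it ranged from 4.44 to 5.76 FPKM, with a median of 4.70. The groups overlapped widely, and the log2 fold change was -0.12 (95% interval -0.33 to 0.09; limma adjusted p = 0.612).

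**Figure D3:**
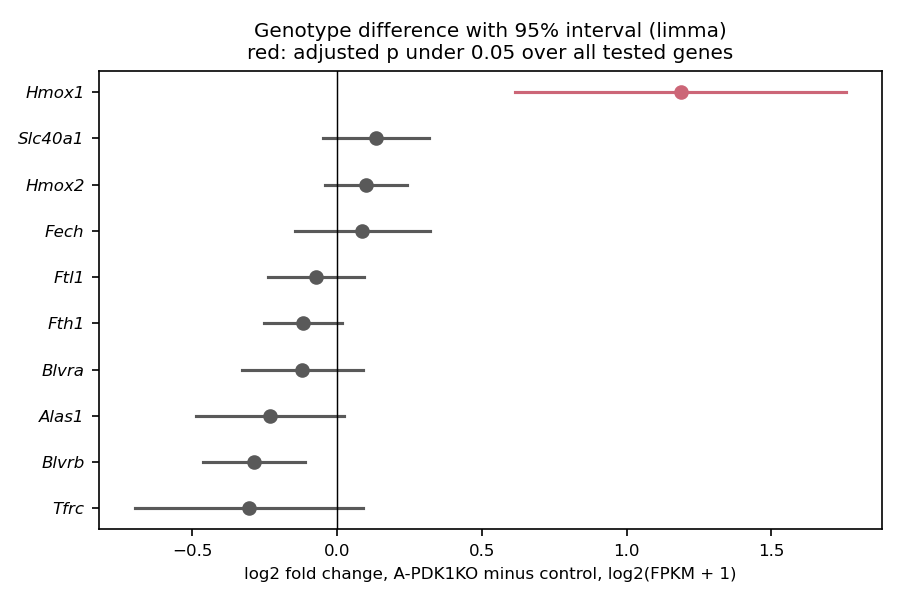
Log2 fold change of each of the 10 genes, A-PDK1KO minus control, on the log2(FPKM + 1) scale, with its 95% interval from limma. Only the Hmox1 interval (0.62 to 1.76) belongs to a called gene; the Blvrb interval also lies below 0 but its adjusted p is 0.103.

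Haem synthesis showed no called gene. Alas1, the rate-limiting synthase outside red cells (chr9:106233455-106248654, minus strand), was measured at 8.11, 7.06, 8.35, 10.8 and 6.83 FPKM over control replicates 1 to 5. A-PDK1KO replicates 1 to 5 stood at 6.40, 7.31, 5.92, 8.25 and 6.22 FPKM. Of the A-PDK1KO hearts 3 lay below every control, and replicates 2 and 4 lay among the controls. The log2 fold change was -0.23 ± 0.12 (95% interval -0.49 to 0.02; limma adjusted p = 0.374). An antisense gene, 4930500F10Rik, overlaps Alas1, and their reads may be mixed.

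Fech (chr18:64452914-64490251, minus strand) was measured at 7.26, 6.56, 7.31, 8.13 and 5.93 FPKM over control replicates 1 to 5, against 6.64, 9.34, 6.78, 8.48 and 6.63 FPKM over A-PDK1KO replicates 1 to 5. The groups overlapped, with A-PDK1KO replicates 2 and 4 highest (log2 fold change 0.09; limma adjusted p = 0.764). These 2 hearts were also the highest A-PDK1KO hearts for Alas1, and control replicate 4 was the highest control for both genes. The level of Fech is uncertain because 197 other genes carry a stretch of at least 200 bases that is at least 90% identical, 14 of them in the deposited table.

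Taken within each heart, the ratio of Alas1 to Fech was 1.12, 1.08, 1.14, 1.33 and 1.15 in control replicates 1 to 5 and 0.964, 0.783, 0.874, 0.973 and 0.939 in A-PDK1KO replicates 1 to 5. Alas1 exceeded Fech per length in every control and was below it in every A-PDK1KO heart, with means of 1.16 ± 0.0965 and 0.907 ± 0.0791 (SD, n = 5 per group). A ratio within a heart does not depend on the scaling between hearts, and it shows that the pair differed unequally, not which of them moved. This was 1 of 5 ratios looked at and the only one whose groups did not overlap. No test was made of it, and it rests on the uncertain level of Fech and on Alas1, whose reads may be mixed with those of 4930500F10Rik. For single genes the share without overlap was 4.96%, and for ratios it was not computed.

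**Figure D4:**
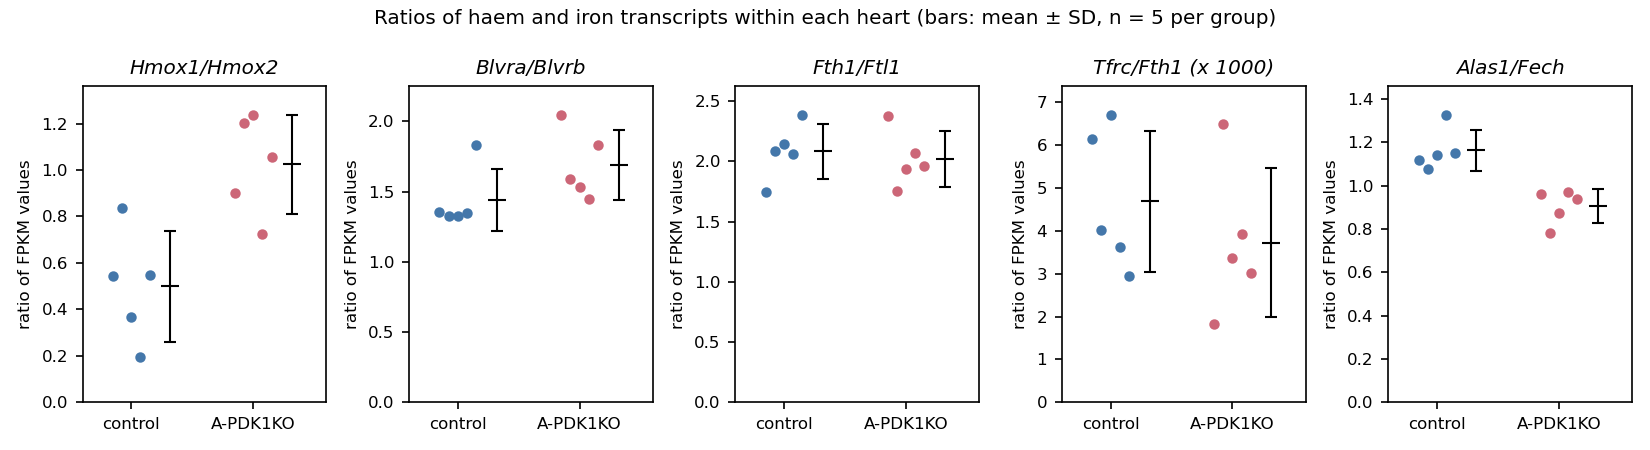
Ratios of FPKM between pairs of haem and iron genes in each heart; points are single hearts and bars are means with SD (n = 5 per group). The ratio of Alas1 to Fech lies at 1.08 to 1.33 in controls and at 0.783 to 0.973 in A-PDK1KO hearts, while the other ratios overlap between groups.

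No other gene of the haem synthesis pathway passed the test. Of its 9 genes, all tested, 0 passed in either direction, 4 lay above 0 and 5 below, and the median log2 fold change was -0.07. Uros (uroporphyrinogen synthase) was 4.86 FPKM in controls and 4.44 in A-PDK1KO hearts on average. Ppox (protoporphyrinogen oxidase) was 1.08 and 1.35, and Cpox (coproporphyrinogen oxidase) was 5.24 and 4.93. Of 12 tested genes of haem transport and its helpers, 0 passed, with a median of -0.04. Among them Clpx, a subunit of a mitochondrial protease that acts on aminolevulinate synthase, averaged 43.3 ± 3.42 FPKM for controls and 51.9 ± 5.68 FPKM for A-PDK1KO hearts (SD, n = 5; limma adjusted p = 0.146). It was called higher when scaling ignored mitochondrial and globin genes (limma adjusted p = 0.0203).

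The iron genes are regulated largely after transcription. Iron regulatory proteins bind a hairpin in the messenger RNA, the iron-responsive element, when iron is scarce. At the front of a message the bound protein blocks translation, and at the tail it protects the message from decay. The hairpins of the 4 iron genes are shown because Tfrc carries its copies at the tail, where they act on the message level measured here, and the other 3 genes carry theirs at the front. They were found in GENCODE vM21 transcripts (GRCm38, the same assembly as mm10) as a C, 5 letters, the loop CAGTGN with its last letter A, C or T, and 5 letters that pair with the first 5, counting G with T as a pair. Only the transcript strand was searched, an element that departs from this pattern would be missed, and capitals mark the loop.
Fth1, front: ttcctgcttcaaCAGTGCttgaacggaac
Ftl1, front: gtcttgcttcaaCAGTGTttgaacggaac
Slc40a1, front: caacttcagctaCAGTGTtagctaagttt
Tfrc, tail, element 1: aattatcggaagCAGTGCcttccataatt
Tfrc, tail, element 2: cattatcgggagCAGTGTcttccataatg
Tfrc, tail, element 3: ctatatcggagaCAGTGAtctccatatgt
Tfrc, tail, element 4: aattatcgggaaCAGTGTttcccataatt

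The Fth1 element lies at chr19:9982732-9982760 (plus strand), the Ftl1 element at chr7:45459779-45459807 (minus strand) and the Slc40a1 element at chr1:45925465-45925493 (minus strand), each in the 5′ UTR. The 4 Tfrc elements that matched the pattern lie in its 3′ UTR on the plus strand, at chr16:32631219-32631247, chr16:32631598-32631626, chr16:32631663-32631691 and chr16:32631710-32631738. Fth1 and Ftl1 share the same letters on both sides of the loop, ttcaa and ttgaa. In all, 4 of the 10 genes held the pattern in a UTR, as did 73 of 8984 tested genes with protein-coding transcripts (0.813%). Of those 73 genes, 0 were called between the groups, beside 2.08% of all tested genes, a share that would give few calls in 73 genes. A match to the letters is a description and not a measured binding site.

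Fth1, the heavy chain of ferritin (chr19:9980598-9985098, plus strand), was the most abundant of the 10 per length. It was measured at 416.5, 483.6, 472, 486 and 493 FPKM over control replicates 1 to 5, against 426, 394, 458, 445 and 441 FPKM over A-PDK1KO replicates 1 to 5. Control replicate 1, the heart with the most blood, stood apart as the lowest control, and the groups overlapped only through it, since the other 4 controls lay above every A-PDK1KO heart. The log2 fold change was -0.12 ± 0.06 (95% interval -0.25 to 0.02; limma adjusted p = 0.396). Without control replicate 1 it was still not called, as in all 21 other settings (limma adjusted p 0.190 to 0.702). At 13308 to 18316 fragments per heart, counting error is small beside the spread between mice.

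Ftl1, the light chain (chr7:45457944-45459884, minus strand), was measured at 238, 232, 220.3, 236 and 207 FPKM over control replicates 1 to 5, against 179, 225, 237, 215 and 225 FPKM over A-PDK1KO replicates 1 to 5. The groups overlapped, with A-PDK1KO replicate 1 the lowest heart (log2 fold change -0.07; limma adjusted p = 0.715). The level of Ftl1 is uncertain for the same reason, with 10 such genes, 3 of them in the deposited table. The ratio of Fth1 to Ftl1 was 2.08 ± 0.228 in controls and 2.02 ± 0.232 in A-PDK1KO hearts (SD, n = 5).

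Tfrc, the transferrin receptor (chr16:32608920-32632794, plus strand), was measured at 2.55, 1.95, 3.16, 1.76 and 1.45 FPKM over control replicates 1 to 5. The A-PDK1KO hearts, in the same order, gave 0.776, 2.55, 1.54, 1.75 and 1.33 FPKM. It was the lowest of the 10 genes and varied most among A-PDK1KO hearts, whose range held 4 of the 5 controls. The log2 fold change was -0.30 ± 0.18 (95% interval -0.70 to 0.09; limma adjusted p = 0.462). Only 46 to 184 fragments per heart lay behind it, and the interval still holds a difference larger than that of Blvrb.

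Slc40a1, ferroportin, the exporter of iron from cells (chr1:45908068-45926523, minus strand), was measured at 5.71, 6.18, 6.77, 5.53 and 7.45 FPKM over control replicates 1 to 5. Its A-PDK1KO values, replicates 1 to 5, were 6.69, 6.94, 7.92, 6.76 and 6.77 FPKM. Replicate 3 was the highest heart of all, and the other 4 A-PDK1KO hearts lay close together in the upper part of the control range. The log2 fold change was 0.13 (95% interval -0.05 to 0.32; limma adjusted p = 0.490).

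Over the 10 genes, 1 was called higher (1.21% of all tested genes were) and 0 were called lower (0.871%). At an unadjusted p under 0.05 there were 2 (15.6% of all tested genes), Hmox1 and Blvrb. The log2 fold change was above 0 for 4 and below 0 for 6, with a median of -0.10 beside 0.02 over all tested genes.

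In the wider iron lists 1 further gene was called. Ceruloplasmin (Cp), a copper ferroxidase that oxidizes iron leaving through ferroportin, was measured at 10.8, 11.9, 10.5, 10.3 and 9.27 FPKM over control replicates 1 to 5. A-PDK1KO replicates 1 to 5 stood at 6.82, 7.87, 8.05, 8.24 and 8.26 FPKM. The groups did not overlap (2.23% of tested genes had all A-PDK1KO hearts lower), and Cp fell by 0.38 ± 0.08 on the log2 scale (limma adjusted p = 0.0299). Liver makes most ceruloplasmin, and the hepatocyte marker Alb reached at most 1.59 FPKM (controls) and 1.31 FPKM (A-PDK1KO). Like Hmox1, Cp lay near the threshold. The call was lost on the TPM scale (adjusted p = 0.0894), and with control replicates 1, 2 or 3 or A-PDK1KO replicates 1, 3 or 5 left out (limma adjusted p up to 0.0728).

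Iron uptake held 7 tested genes, of which 0 passed, with a median of -0.05. The lowest p there was that of Slc39a14, a carrier that imports iron not bound to transferrin. It was measured at 4.24 to 6.10 FPKM for controls and at 2.97 to 4.02 FPKM for A-PDK1KO hearts, without overlap (log2 fold change -0.39 ± 0.10; limma adjusted p = 0.0659). That p was under 0.05 with median-of-ratios factors (0.0392) and in the voom fit on recovered fragments (0.0329). Storage and ferritin turnover held 5 tested genes, all 5 below 0 and 0 called, with a median of -0.07. Of 5 tested genes of export and the hepcidin axis, 0 were called higher and 1, Cp, lower, with a median of -0.04.

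Among the genes that sense iron, Aco1, which encodes iron regulatory protein when it lacks its iron-sulphur cluster, averaged 5.81 ± 0.877 FPKM for controls and 6.02 ± 0.792 FPKM for A-PDK1KO hearts. Ireb2, the second such protein, averaged 1.87 ± 0.286 and 2.18 ± 0.562 FPKM (SD, n = 5). Of the 3 genes of the sensing list 0 passed, with a median of 0.045.

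Mitochondrial iron and iron-sulphur cluster genes gave 0 calls of 20 tested, with a median of -0.03. Slc25a37, mitoferrin, which brings iron into mitochondria, averaged 0.774 ± 0.233 FPKM for controls and 1.31 ± 0.454 FPKM for A-PDK1KO hearts (limma adjusted p = 0.197). Its relative Slc25a28 averaged 8.36 ± 0.782 and 7.11 ± 0.969 FPKM (limma adjusted p = 0.299). Bola3, a factor in iron-sulphur cluster delivery, averaged 39.0 ± 2.14 and 33.2 ± 3.60 FPKM (limma adjusted p = 0.160), and was called lower without A-PDK1KO replicate 2 (limma adjusted p = 0.0437).

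Hmox1 is a known target of the activator NRF2 and the haem-sensing repressor BACH1, so 14 other tested genes of that axis were read beside it. None passed in either direction, with a median of 0.06. Txnrd1 (thioredoxin reductase) averaged 5.68 ± 0.569 FPKM for controls and 7.92 ± 1.95 FPKM for A-PDK1KO hearts (SD, n = 5; limma adjusted p = 0.163). Srxn1 (sulfiredoxin) averaged 13.7 ± 1.63 and 17.8 ± 3.51 FPKM (limma adjusted p = 0.196), and Ephx1 (epoxide hydrolase) 18.1 ± 1.96 and 14.8 ± 1.64 FPKM (limma adjusted p = 0.151). At an unadjusted p under 0.05, 5 of the 14 were higher and 1 lower, beside 15.6% of all tested genes in either direction. The other 3 higher were Gclm, G6pdx and Gsta4, named after their values were seen (limma adjusted p = 0.264, 0.301 and 0.301). Chosen likewise, Nqo1, a widely used NRF2 target, averaged 32.7 FPKM for controls and 32.1 FPKM for A-PDK1KO hearts. The genes of the regulators themselves did not pass either, with Nfe2l2 (NRF2) averaging 14.3 and 12.9 FPKM and Bach1 3.89 and 4.06 FPKM.

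**Figure D5:**
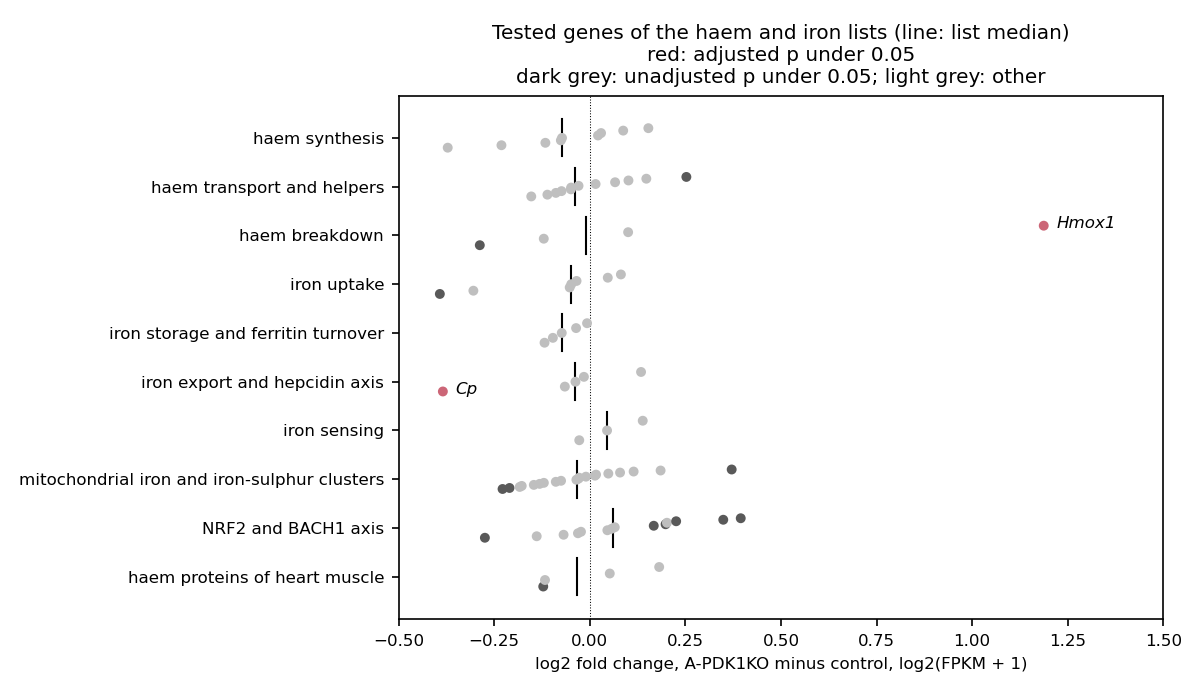
Log2 fold change (A-PDK1KO minus control, log2(FPKM + 1) scale) of every tested gene of 10 haem and iron lists; each point is a gene and each vertical line a list median. Hmox1 (1.19) and Cp (-0.38) are the 2 called genes, and the list medians lie between -0.07 and 0.06.

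Across the 10 lists, 83 of 98 listed genes were tested, 1 was called higher and 1 lower, which is 2.41% beside 2.08% of all tested genes. At an unadjusted p under 0.05 the share was 18.1%, beside 15.6% of all tested genes. The median log2 fold change over the 83 genes was -0.03. Apart from the 10 genes chosen by symbol, 0 of the other 73 were called higher and 1 was called lower. Among genes of haem proteins in heart muscle, myoglobin (Mb) averaged 7589 FPKM for controls and 7878 FPKM for A-PDK1KO hearts, and Cyc1, cytochrome c1, differed by a log2 fold change of -0.12 (limma adjusted p = 0.249).

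The 5 tested genes whose log2 levels followed Hmox1 most closely over the 10 hearts were Ctsl, Twf2, Ccng2, Nampt and Ttc33. Their Pearson correlations with Hmox1 were 0.94, 0.938, 0.934, 0.932 and 0.931. These are descriptions over 10 hearts that share the genotype difference, and they were picked as the highest of all tested genes. Ctsl, a lysosomal protease, lay at 30.0 to 36.4 FPKM in the control group, against 36.3 to 45.6 FPKM in the A-PDK1KO group. Nampt, which makes a precursor of NAD, lay at 46.4 to 53.5 and 58.7 to 63.0 FPKM. Ctsl, Twf2, Ccng2 and Nampt were called higher (limma adjusted p 0.0309 to 0.0325) and Ttc33 was not (0.205). Like Hmox1, these 4 lost the call on the TPM scale, with median-of-ratios factors and in most fits with 1 heart left out (8 of 10 for Ctsl, 7 of 10 for each of the others).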

How the data were processed

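RNA-seq of 10 mouse hearts was analysed, 5 control and 5 A-PDK1KO, grouped by the genotype labels. The deposited values are FPKM per gene made by the authors; the submitters' processing notes name Trimmomatic 0.38, HISAT2 2.1.0, featureCounts 1.6.3 and mm10, and the labels' protocols name FastQC 0.11.7. The annotation and the strand setting used are not stated there. The lowest maximum of any deposited gene was 1.00 FPKM. The table's 1 further column of values was not used.

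FPKM were taken as log2(FPKM + 1), genes with a mean under 1 FPKM were left out, and limma 3.58.1 (R 4.3.3, trended prior variance) compared the groups with Benjamini-Hochberg adjustment over 9987 genes. Called means an adjusted p below 0.05. A fold change on this scale understates the change of low genes. The blood slope was fitted on log2 of the globin sum with genotype in the model. Marker sums were compared by exact two-sided permutation of the log2 values over 252 splits, and these p-values were not adjusted over the lists. With GENCODE vM21 exon lengths, 98.4% of the FPKM values came out as whole fragments within 0.05, which gave the implied library sizes and a voom fit; this fit and the fits on blood without control replicate 1 were added after seeing the data. The script was tested on simulated data. No pair of hearts of the same group was a duplicate within sampling noise, and pairs across the groups were not checked.

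The 10 genes and the lists were chosen with earlier results of these data known. Named genes are the 10, the globin genes, Pdpk1 and the 5 genes most like Hmox1. In each list the called genes and up to 3 others of smallest p, Hamp among them, are named as well. The pattern of Hamp over the hearts was noticed after its values were seen. Alas2, Mb, Nqo1, Nfe2l2, Bach1, Gclm, G6pdx and Gsta4 were added after their values were seen. Alternatives were the pseudocount, the filter, the scaling, covariates, robust variances, a replicate block and each heart left out.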

Additional observations from a re-analysis of the deposited data

Results flagged for a closer look

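Single hearts stood far from the other 4 of their group in 6 of the 38 groups of values examined, by the ratio of the gap to the nearest heart to the whole range (Dixon's 95% limit of 0.71 for 5 hearts). Chance flags about 1 in 20 groups when values have a normal spread. The ratio was taken on FPKM, not on the log2 scale of the blood tests. The globin sum differed 50.2-fold between its highest and lowest heart, so that rate need not hold for the blood and erythroid sums. Control replicate 1 accounted for 4 of the values. Its blood content was 1379 FPKM beside 27.5 to 245 in the other controls, and its erythroid marker sum, which contains the same globin genes, was 1420 FPKM beside 54.4 to 267. Its Fth1 level was the lowest control at 416.5 FPKM beside 472 to 493, and its cardiomyocyte marker sum was the lowest control at 11452 FPKM beside 13309 to 13983. Slc40a1 was highest in A-PDK1KO replicate 3 at 7.92 FPKM beside 6.69 to 6.94. The adipocyte sum, which is Cfd alone, was highest in A-PDK1KO replicate 5 at 1.36 FPKM beside 0 to 0.295.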

How the results depend on the processing

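The number of genes called was 208, and 58 on the TPM scale, 390 when scaled without mitochondrial and haemoglobin genes, and 57 to 150 with 1 heart left out (57 without A-PDK1KO replicate 5, 62 without A-PDK1KO replicate 3, 77 without control replicate 3). The 9 haem and iron genes other than Hmox1 were called in no setting. The labels number the mice 1 to 5 in both groups without saying that a number is shared, and same-numbered hearts deviated from their group means with correlations of -0.12 to 0.09, none best with its own number. With a replicate block 153 genes were called, Hmox1 kept its call (limma adjusted p = 0.0271) and Cp (0.0714) and Nampt (0.0525) did not. For the sums, the replicate block flipped the signs of the 5 differences between same-numbered hearts. It gave -0.178 for the cardiomyocyte sum (exact sign-flip p = 0.125) and -0.799 for the atrial sum (exact sign-flip p = 0.0625). The smallest p this test can give is 0.0625, so it cannot decide whether a sum passes 0.05. The cardiomyocyte sum had an exact permutation p above 0.05 on the TPM scale (-0.170) and scaled without mitochondrial and haemoglobin genes (-0.111). With 1 heart left out, the log2 difference of the sums ran from -0.229 to -0.149 (cardiomyocyte), -1.017 to -0.66 (atrial; p above 0.05 in 6 of the 10 cardiomyocyte and 4 of the 10 atrial fits), -0.162 to -0.038 (macrophage), -0.037 to 0.058 (endothelial, -0.010 with median-of-ratios factors), -0.352 to 0.036 (adipocyte), -0.796 to 0.375 (erythroid) and -0.845 to 0.554 (blood content). The macrophage sum had an unadjusted p under 0.05 without A-PDK1KO replicate 3 (-0.162, exact p = 0.0476). The blood slope called 2 genes without control replicates 1 and 4. Of genes that were not called, the log2 fold change crossed 0 with a heart left out for Hamp (-0.28 to 0.16), Hba-a1 (-0.70 to 0.67), Hba-a2 (-0.87 to 0.57), Hbb-bs (-0.92 to 0.44), Hbb-bt (-0.79 to 0.53), Alas2 (-0.61 to 0.17), Aco1 (-0.0223 to 0.118) and Pdpk1 (-0.0826 to 0.0265). Pdpk1 was 0.0157 scaled without mitochondrial and haemoglobin genes, and Hba-a1 was 0.12 with blood content as a covariate. Hamp, -0.02 as reported, was 0.27 with a pseudocount of 0.1, 0.0321 on the TPM scale, 0.0235 scaled without mitochondrial and haemoglobin genes, 0.0129 and 0.097 with blood or atrial tissue as a covariate, and 0.17 in the voom fit. The cause of these changes was not tested. Blvrb rests on 72 to 115 fragments per heart and Tfrc on 46 to 184.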

Other observations

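Hamp encodes hepcidin, the peptide that makes ferroportin be internalized. Over control replicates 1 to 5 it read 0, 6.98, 0.259, 0.252 and 1.37 FPKM. A-PDK1KO replicates 1 to 5 read 0.254, 0.250, 2.65, 0.214 and 3.06 FPKM. The highest values fell in control replicates 2 and 5 and A-PDK1KO replicates 3 and 5, the same 4 hearts whose Myl7 was 85.9, 71.3, 35.0 and 47.6 FPKM. In the other 6 hearts Hamp was at most 0.259 FPKM and Myl7 at most 0.877 FPKM. Between the genotypes Hamp differed by a log2 fold change of -0.02 (limma adjusted p = 0.994). The pattern was noticed after the values were seen, and no test was made of it. The transcript of Slc40a1, which encodes ferroportin, did not separate these 4 hearts, at 6.18, 7.45, 7.92 and 6.77 FPKM beside 5.53 to 6.94 FPKM in the other 6. Hepcidin acts on the ferroportin protein, which was not measured.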
